A study of Saccharomyces cerevisiae with 3 samples.

Results

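The pericentromeres described here are the 10 kb around the centromere of each of the 16 budding yeast chromosomes. The sacCer2 genome was tiled from its first base into windows of 150 bp. A window was a member when all of it lay within 5 kb of a centromere point given to the nearest kb. This gave 1056 of 80287 windows (1.32%), 66 on each chromosome, and no measured value entered the choice. Because the points are rounded to 1 kb, the centromere itself need not lie at its point but may lie to either side of it, inside the same kb.

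MNase-seq was used to map nucleosomes from the fragments that micrococcal nuclease (MNase) leaves after partial digestion, which spares nucleosomes that the enzyme would otherwise destroy. The libraries were 1 of naked DNA from wild-type BY4741 cells, which shows where the enzyme cuts DNA without histones, and 2 replicates of cross-linked *dst1∆* chromatin. BY4741 is a haploid laboratory strain that lacks *HIS3*, *LEU2*, *MET15* and *URA3*, and *dst1∆* is the same background without *DST1*, the gene of the elongation factor TFIIS. All cells were growing exponentially, and wild-type chromatin was not analysed here, so nothing below compares the mutant with the wild type.

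Budding yeast has point centromeres, in which a short DNA sequence is enough to build a kinetochore. The sequence has 3 elements, namely CDEI, bound by Cbf1, CDEII, a stretch very rich in A and T that is wrapped in a nucleosome with the histone H3 variant Cse4, and CDEIII, bound by the CBF3 complex. The chromatin on either side is rich in cohesin and carries phased nucleosomes, and MNase cuts AT-rich DNA in preference to other DNA. These statements are background, and the sequence of the windows was not examined.

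The libraries held 16618987 reads for naked DNA, 10776646 for *dst1∆* replicate 1 and 9049024 for replicate 2. Repeated reads were capped at 11, 9 and 9 per strand position. The pericentromeric windows then held 97185, 79645 and 80912 fragments. Levels are fragment counts per window on a scale where the mean of all windows is 100 in each library, and they are thus relative to the rest of the same library. A mean window held 135, 94.7 and 81.6 fragments. Repeated reads took a smaller share near the centromeres, where the cap kept 79.0%, 87.7% and 82.6% of the reads, against 65.1%, 70.4% and 72.4% in the remaining genome. Per the methods of the study, naked DNA and replicate 1 were sequenced as reads of 36 nucleotides on a Genome Analyzer IIx. Replicate 2 was sequenced as reads of 50 nucleotides on a HiSeq 2000, but 99.9% of its deposited reads span 46 bp. The difference between the replicates, and that between their ratios to naked DNA, thus cannot be told apart from the platform. There were no molecular identifiers, so intervals from counts cover counting error only. With 1 naked DNA library and 2 chromatin replicates no test could be made between libraries, and values are given per library, with the spread between the replicates and the number of chromosomes that show the same direction.

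The pericentromeres gave fewer MNase-resistant fragments from naked DNA than the remaining genome. Their mean naked DNA level was 68.2, against 100.4 in the 79231 remaining windows, a log2 difference of -0.56 (95% counting interval -0.57 to -0.55). The medians lay closer, at 35.6 and 40.03, a log2 difference of -0.17. Most of the difference in means lay in windows with very high levels. Windows above 300 made up 5.21% of the pericentromeric windows (55 windows) and 10.7% of the remaining ones, and they carried 31.2% and 50.3% of the summed level. Resistant sites of this kind were fewer near the centromere than on the rest of the same chromosome on 15 of 16 chromosomes, with between 1 and 8 such windows in each pericentromere.

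The size of this difference rested on how repeated reads were counted. The log2 difference was -0.84 without a cap and -0.24 when each strand position counted once, and its direction was the same in both.

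In *dst1∆* chromatin the pericentromeric deficit was smaller and unequal between the replicates. The mean level was 79.7 in replicate 1 and 93.8 in replicate 2, against 100.3 and 100.1 in the remaining windows. These are log2 differences of -0.33 and -0.09, or -0.21 ± 0.17 (SD, n = 2). The medians were 68.7 and 78.4, against 69.7 and 77.2, so the typical pericentromeric window was close to the typical window elsewhere in both replicates. Windows above 300 were again fewer, at 1.61% and 1.80% against 5.34% and 3.37%. No window above 300 was found in 6 pericentromeres in replicate 1 and in 5 in replicate 2.

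The single chromosomes differed widely in naked DNA. The lowest mean was 42.2 on chromosome III, followed by 47.7 on chromosome XII and 48.4 on chromosome IX, and the highest were 98.1 on chromosome XIV and 99.6 on chromosome XVI. The pericentromere lay below the rest of its own chromosome on 15 of 16, and chromosome XVI was the exception with a log2 difference of 0.11. The largest deficits were on chromosome III (-1.60), chromosome IX (-1.29) and chromosome I (-1.26). Chromosomes I and III also had the highest levels outside the pericentromere, 131 and 128.

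In chromatin the chromosomes were more alike. Replicate 1 ranged from 67.6 on chromosome XII to 96.2 on chromosome XVI and lay below the rest of the chromosome on 15 of 16, again with chromosome XVI as the exception. Replicate 2 ranged from 80.8 on chromosome III to 112 on chromosome XVI and lay below on 12 of 16. Replicate 2 had the higher level of the 2 replicates on 15 chromosomes, and chromosome XI was the exception, with 85.9 in replicate 1 and 85.4 in replicate 2.

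**Figure D1:**
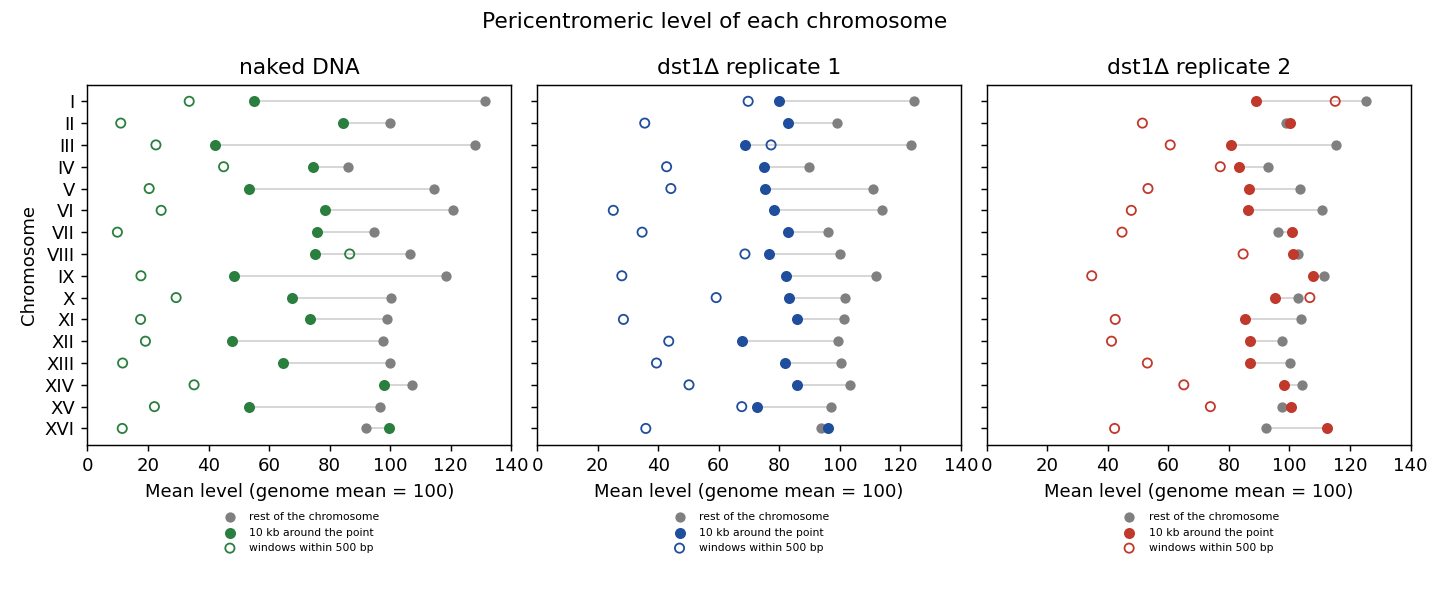
Mean level (genome mean = 100) of the pericentromere of each chromosome in each library (filled points), of the rest of the same chromosome (grey points) and of the 6 windows within 500 bp of the point (open circles). In naked DNA the filled points run from 42.2 to 99.6 and lie left of the grey point on 15 of 16 chromosomes, and the open circles lie left of the grey points on all 16.

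Set against 1166 blocks of 10 kb elsewhere, the pericentromeres were low but seldom extreme. The blocks had a median naked DNA level of 93.3, with 10% of them below 50.0. Of the 16 pericentromeres, 14 were below the median of the blocks and 3 below that lower limit. In replicate 1, 15 were below the median of the blocks and none below 65.2, the limit of the lowest 10% of blocks. In replicate 2, 9 of 16 were below the median.

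The lowest levels lay in the 0.5 kb next to the point, with windows placed in bins of distance by their centre. In naked DNA the median level was 13.3 within 0.5 kb, 34.5 between 0.5 and 1 kb and 41.5 between 1 and 2 kb. It then stayed between 34.1 and 38.9 out to 5 kb, against 40.8 between 5 and 10 kb and 40.03 beyond 50 kb. The mean was 30.2 within 0.5 kb and lay between 62.6 and 71.8 in the bins from 0.5 to 4 kb, without a steady rise. It was 91.2 between 4 and 5 kb, a bin that holds the highest member window (771), and 99.1 between 5 and 10 kb. In replicate 1 the mean was 49.6 within 0.5 kb, between 72.4 and 87.7 from 0.5 to 4 kb and 92.6 between 4 and 5 kb. In replicate 2 it was 65.8, between 89.2 and 96.2, and 105.9. Past 1 kb from the point the naked DNA mean was still lower than in the remaining genome, with a log2 difference of -0.44.

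**Figure D2:**
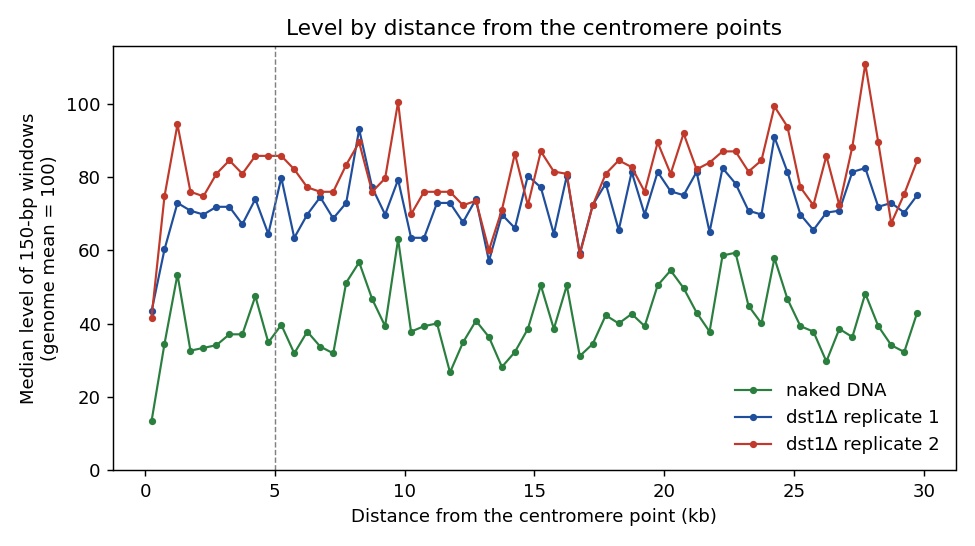
Median level of the 150-bp windows (genome mean = 100) against the distance from the centromere point in kb, in bins of 0.5 kb, with a dashed line at 5 kb. The first bin is the lowest of the pericentromeric bins in each library, with 13.3 in naked DNA, 43.3 in replicate 1 and 41.6 in replicate 2.

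Of the 109 windows centred within 500 bp of the points, 96 lay wholly inside and are described here. Their mean naked DNA level was 26.1 (log2 difference from the remaining windows -1.94, 95% counting interval -1.99 to -1.90) and their median was 11.1. No fragment was centred in 10 of them, and a count of 0 allows a level of up to 2.22 (3 fragments). The mean levels in chromatin were 46.9 and 62.1, and the medians 41.2 and 41.6. The naked DNA level was below that of the rest of the chromosome at all 16 points, as was replicate 1, and replicate 2 was lower at 15. The 13186 blocks of 900 bp elsewhere had a median naked DNA level of 68.1, and 10% of them were below 21.4. Of the 16 points, 15 lay below that median and 8 below the lower limit.

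The points themselves varied. The lowest mean naked DNA level within 500 bp was 9.88 on chromosome VII, where replicates 1 and 2 were at 34.7 and 44.7. The highest was 86.6 on chromosome VIII, where the replicates were at 68.7 and 84.7. Chromatin exceeded naked DNA in both replicates at 14 of 16 points, and chromosomes IV and VIII were the exceptions.

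Close to each point, chromatin had a short gap in which hardly any fragment was centred. A signal was computed at each base as the number of fragments centred in the 81 bp around it, again with a genome mean of 100, and a gap was the longest stretch within 1 kb of the point where the signal of replicate 1 stayed below 10. Gaps of at least 200 bp were found at 15 of 16 points. The background is that 10.8% of all 5929 sections of 2 kb had such a gap, and 10.6% of the 5913 sections away from the points. The median length was 275.5 bp. The longest was 361 bp, on chromosome XII, and the shortest was 112 bp, on chromosome XIII, where a small peak of replicate 2 fragments adjoined it. The median over the other sections was 82 bp.

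**Figure D3:**
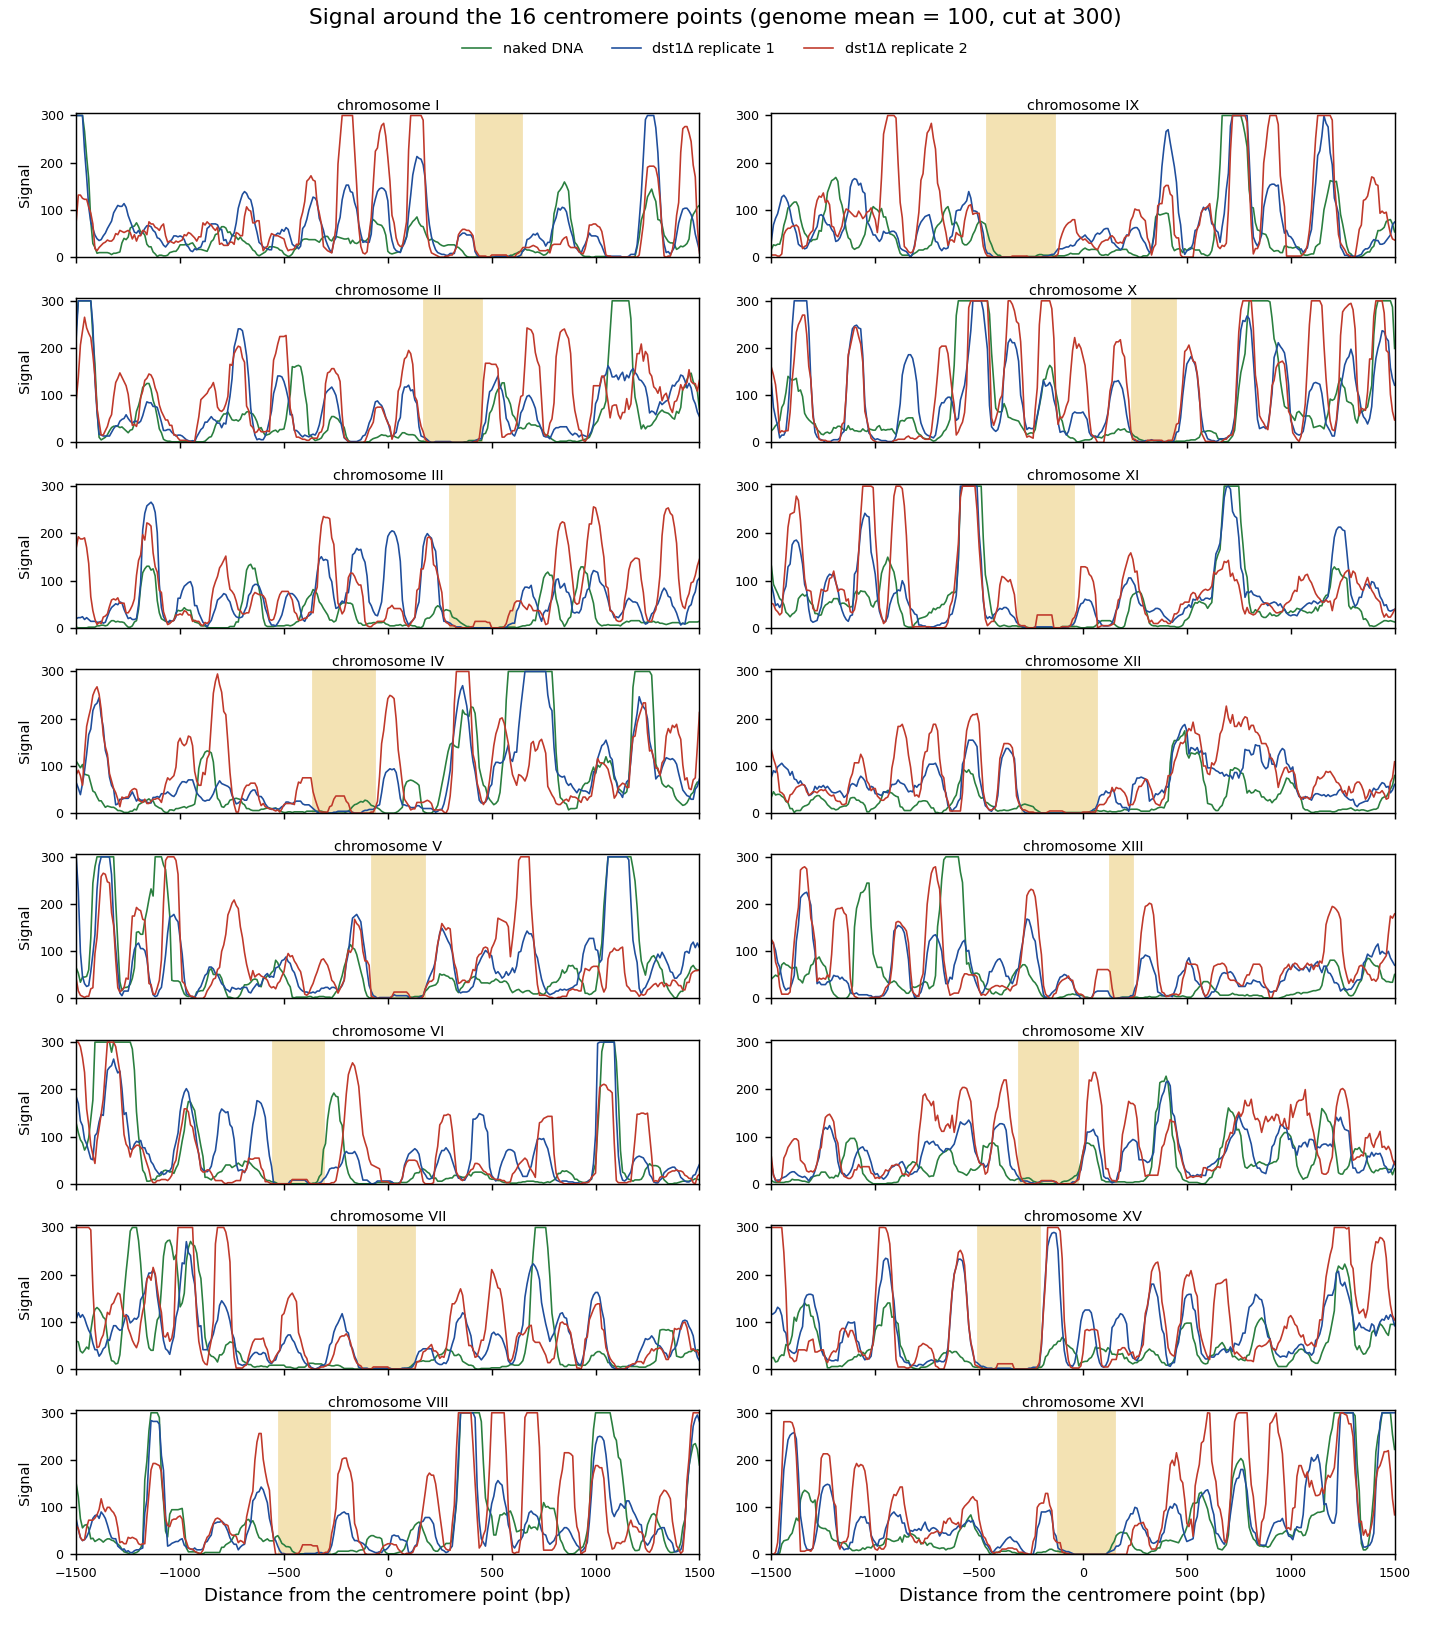
Signal of the 3 libraries (genome mean = 100, drawn up to 300) against the distance in bp from each of the 16 centromere points, with the gap found in replicate 1 shaded. Each shaded stretch, 112 to 361 bp long, has a low mean in all 3 libraries, and peaks of chromatin stand on both sides of most of them. Single bases inside reach 75.5 in naked DNA on chromosome VI and 74.8 in replicate 2 on chromosome II.

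The search used replicate 1, so the other libraries were read inside the gaps without having chosen them. The mean signal of replicate 2 inside a gap had a median of 3.81 over the 16 points and was below 10 at 14. The exceptions were chromosome IV (13.1) and chromosome XI (10.4), and there stacks of up to 4 and 5 reads at a single position made up part of the fragments. Over the 150 bp beside the gaps the median of replicate 2 was 71.8. Searched in replicate 2 itself, gaps of 200 bp were found at 9 points, against 16.9% of the other sections.

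Naked DNA was also nearly empty there. Its mean signal inside the gaps had a median of 3.23, with the highest value of 8.90 on chromosome IV, and was below 10 at all 16 points. The number of naked DNA fragments centred in a gap ran from 0 on chromosome XV to 26 on chromosome IV. Those of chromosome IV came from 23 different positions, so reads could be placed there. Whether each base of the gaps can be mapped without ambiguity was not tested. Where both libraries are empty, a stretch without a nucleosome and a stretch that MNase destroyed cannot be told apart.

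Gaps of 200 to 400 bp found by the same rule elsewhere, 390 in number, differed from these mainly in naked DNA. Replicate 2 was similarly low inside them, with a median of 4.50, and below 10 in 71.5% of them. Naked DNA had a median of 6.42, with an upper quartile of 18.9, and was below 10 in 58.7%. Over the flanking 150 bp naked DNA had a median of 40.1 beside the other gaps and 24.3 beside the 15 of that length at the points (20.0 with the short gap of chromosome XIII), and replicate 2 had 99.5 and 72.9.

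Coordinates on sacCer2 place the gap of chromosome XII at 150706 to 151066, that of chromosome IX at 355541 to 355867 and that of chromosome III at 114301 to 114612. A list of transcription start and end sites covered 8 of the 16 chromosomes around the point. On 7 of these the gap lay between the nearest listed genes of the left and right arm. On chromosome VI it started 35 bp inside the listed transcript end of YFL001W (*DEG1*, a tRNA pseudouridine synthase). The shortest distances to a gene were 187 bp on chromosome XII, to YLR001C, and 211 bp on chromosome I, to the start of *TFC3*.

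Beside the gaps chromatin formed a row of peaks. Averaged over the 32 sides, the signal of replicate 2, which did not choose the gaps, had its first peaks 74 and 257 bp from the gap edge and peak number 4 at 609 bp. Those of replicate 1 lay at 74 and 246 bp, with peak number 4 at 606 bp. The steps between the first 4 peaks were thus 183, 179 and 173 bp in replicate 2 and 172, 180 and 180 bp in replicate 1. Farther out the steps changed, to 157 and 188 bp in replicate 2 and to 158 and 154 bp in replicate 1. When each chromosome was left out in turn, peak number 4 stayed between 603 and 615 bp in replicate 2 and between 595 and 612 bp in replicate 1.

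Over these first 4 peaks, but not beyond them, the steps beside the other gaps were shorter in both replicates. Their first 4 peaks lay at 67, 235, 398 and 564 bp in replicate 2 and at 77, 236, 398 and 564 bp in replicate 1, with steps of 159 to 168 bp, and the next steps were 162 and 161 bp in replicate 2 and 166 and 154 bp in replicate 1. Peak number 4 thus lay nearer to the gap than at the points. It was at 564 bp, against 609 bp at the points in replicate 2 and 606 bp in replicate 1. The ranges over left-out chromosomes come from averages that share most of their gaps, so they do not give the spread between gaps. No spread is given for the other gaps, and the difference was not tested. The height of the first peak was 134 in replicate 2 beside the gaps at the points and 163 beside the others, and in replicate 1 it was 106.2 and 105.3, so the replicates did not share a difference. Naked DNA beside the gaps at the points had its first peaks at 210 and 415 bp, with heights of 45.8 and 63.8, 205 bp apart.

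**Figure D4:**
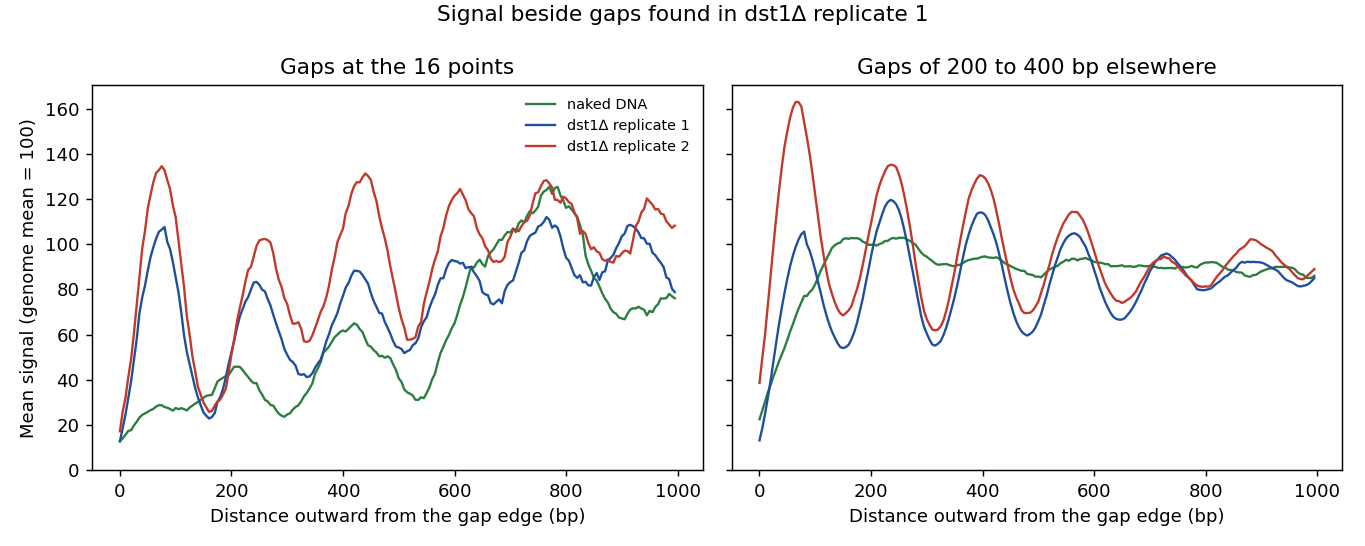
Mean signal (genome mean = 100) against the distance outward from the gap edge in bp, for the 32 sides of the gaps at the points (left) and both sides of 390 gaps of 200 to 400 bp elsewhere (right). The chromatin peaks of the left panel start at 74 and 257 bp in replicate 2 and reach 609 bp with peak number 4, and those of the right panel lie at 67, 235, 398 and 564 bp.

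Chromatin relative to naked DNA was higher in the pericentromeres than in the remaining genome. The log2 ratio was computed with a pseudocount of 10 for windows with at least 10 naked DNA fragments, which left 941 of the 1056 members and 61 of the 96 windows within 500 bp. The other 115 members had too few naked DNA fragments for a ratio. The median log2 ratio was 0.57 in replicate 1 and 0.81 in replicate 2, against 0.40 and 0.53 in the remaining windows. The difference was 0.17 and 0.28, or 0.22 ± 0.08 (SD, n = 2). Both values share the 1 naked DNA library, so this SD holds none of its error. The same is true of the SDs of the corrected signal, peak density and fuzziness below. The median ratio was above that of the rest of the chromosome on 11 of 16 chromosomes in replicate 1 and on 14 in replicate 2. Chromosome XIV had the lowest ratio in replicate 1 (0.14), and chromosome XV the highest in replicate 2 (1.17).

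Chromatin was at least 2-fold above naked DNA in both replicates in 212 of 941 pericentromeric windows (22.5%), against 18.2% of all windows tested. It was at least 2-fold below in both in 47 windows (4.99%), against 7.31% of all. In the 61 windows within 500 bp the counts were 20 above (32.8%) and 3 below (4.92%). The members of the set above were spread over all chromosomes, from 6 windows on chromosome XIV to 19 on chromosome IX. In replicate 1 alone 30.2% were above and 6.91% below, against 25.8% and 9.82% of all windows, and in replicate 2 alone 41.6% and 10.9%, against 35.0% and 17.5%.

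The balance of these calls followed the scale. With the genome median set to 100 in place of the mean, 6.80% of the members were above and 16.8% below, against 5.97% and 21.2% of all windows, so the members kept the larger share above and the smaller share below. With each strand position counted once, 5.41% were above and 4.11% below, against 4.61% and 4.10%.

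Subtracting the naked DNA signal from that of chromatin left little difference between the pericentromeres and the remaining genome. The study made its correction with DANPOS, which was not run here. The corrected mean was 35.3 and 55.9, against 34.8 and 50.3. The log2 difference of 0.09 ± 0.10 (SD, n = 2) was within the spread between the replicates. It turned to -0.25 without a cap on repeated reads and was -0.06 when naked DNA was subtracted at a weight of 0.5.

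The windows with the highest and lowest ratios show the range. The highest mean log2 ratio was in a window of chromosome XI, 442651 to 442800, which had levels of 16.3 in naked DNA, 84.5 in replicate 1 and 279 in replicate 2. On chromosome V, 152551 to 152700, the levels were 18.5, 93.0 and 231. On chromosome VIII, 105751 to 105900, they were 8.16, 62.3 and 122, and this window lies 175 bp from the point. In each of these windows replicate 2 was higher than replicate 1.

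The lowest ratio was in chromosome XIII, 272851 to 273000, where naked DNA was at 379, replicate 1 at 9.51 and replicate 2 at 3.67. In chromosome XV, 331201 to 331350, the levels were 532, 107 and 4.90. In chromosome XI, 442501 to 442650, they were 383, 34.9 and 11.02. This last window touches the one with the highest ratio. Naked DNA thus exceeded both replicates in the former, and both replicates exceeded naked DNA in the latter.

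The highest naked DNA level was 771, in chromosome XIII, 272251 to 272400, inside *MIX17*, which encodes a protein of the mitochondrial intermembrane space. Chromatin was as high there, at 969 and 1032. The next was 579 in chromosome VI, 153001 to 153150, inside *YPI1*, a regulator of protein phosphatase 1, with 226 and 62.5 in chromatin. The third was 558 in chromosome I, 149401 to 149550, inside *TFC3*, a subunit of the RNA polymerase III factor TFIIIC, with 461 and 110. At the other end, 7 of the tested windows shared the lowest naked DNA level the minimum allows, 7.41. The first of these, chromosome III, 111151 to 111300, had 37.0 and 28.2 in chromatin.

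Window by window, the libraries ranked the pericentromere less alike than the remaining genome. Spearman's rho between the replicates was 0.56 over the 1056 members and 0.62 over the remaining windows. It was 0.64 and 0.72 between replicate 1 and naked DNA, and 0.41 and 0.51 between replicate 2 and naked DNA. All windows of a library share its depth and preparation and neighbouring windows can lie on 1 nucleosome, so these values are descriptions. Replicate 1 had the higher rho with naked DNA in both sets, and it shares the instrument and read length with naked DNA, so the replicate and the platform cannot be told apart here.

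Peaks were called on the corrected signal as nucleosomes. There were 776 in the pericentromeres in replicate 1 (4.85 per kb) and 761 in replicate 2 (4.76 per kb), against 4.40 and 4.205 per kb elsewhere, a log2 difference of 0.16 ± 0.03 (SD, n = 2). The density was above that of the rest of the chromosome on 16 of 16 chromosomes in both replicates, but by little on some. In replicate 1 it was 4.4 against 4.37 per kb on chromosome V and 4.5 against 4.47 on chromosome IV. In replicate 2 it was 4.3 against 4.29 on chromosome XIII. Single pericentromeres held 44 to 52 peaks in replicate 1 and 43 to 52 in replicate 2. The difference was 0.06 without the naked DNA correction and 0.12 when only windows with a fragment in every library were counted.

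The spacing between neighbouring peaks had a median of 180 bp in both replicates and both sets. Spacings between 140 and 190 bp made up 62.6% and 56.0% in the pericentromeres, against 60.5% and 51.6% elsewhere. The fuzziness score, here the SD in bp of the signal within 100 bp of a peak, was 31.8 and 32.1, against 31.6 and 31.9. The difference of 0.25 ± 0.01 (SD, n = 2) turned to -0.84 without the correction, and the share of peaks with a score above 40 was lower in the pericentromeres, at 21.1% and 20.9% against 23.4% and 23.0%.

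Genes could be followed on 8 chromosomes, where 38 of 1971 listed genes had their transcription start site (TSS) within 5 kb of the point. They include the histone genes *HTA2* and *HTB2* and the nuclear pore genes *NUP60* and *NIC96*. Their gene bodies had a median naked DNA level of 58.6, against 93.8 in the other listed genes, and 27 of 38 were below that median. In chromatin the medians were 78.1 and 91.3, against 97.7 and 105, with 28 and 23 of 38 below. The log2 ratio of chromatin to naked DNA over the body was above the median of the other genes for 24 of 38 in replicate 1 and for 28 in replicate 2.

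Their promoters, taken from 250 to 50 bp upstream of the TSS, had a median naked DNA level of 28.9, against 40.8. In chromatin the replicates differed in direction. The median was 40.9 against 49.7 in replicate 1, with 23 of 38 below, and 58.3 against 53.7 in replicate 2, with 18 of 38 below. The median log2 ratio was 0.34 in replicate 1 and 1.04 in replicate 2, against 0.06 in both replicates for the other genes, with 24 and 25 of 38 above it.

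The gene with the TSS nearest to the point was named on each of the 8 chromosomes. Points are rounded to 1 kb, so a distance to a point is not a distance to the centromere. The gaps of chromosomes VIII and VI ended 279 and 293 bp from the starts of *OSH7* and *LOC1*. *OSH7*, which encodes a lipid transfer protein of the oxysterol-binding family, starts 2 bp from the point of chromosome VIII. Its promoter had levels of 16.2 in naked DNA, 41.9 in replicate 1 and 84.4 in replicate 2. *LOC1*, needed for ribosome assembly and for the localisation of *ASH1* mRNA, starts 15 bp from the point of chromosome VI, and its gene body had the lowest naked DNA level of the 38, 10.46, with 48.7 and 43.7 in chromatin. In these stretches both replicates lay above naked DNA, but in the other stretch of each gene replicate 1 lay below it. The *OSH7* body had 117 in naked DNA, 91.1 in replicate 1 and 124 in replicate 2. The *LOC1* promoter had 49.5, 37.1 and 123.5.

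*TFC3* on chromosome I starts 211 bp from the point, and its promoter was low in all libraries, at 12.1, 22.4 and 25.6. *ECM15* on chromosome II, whose protein is of unknown function, had promoter levels of 21.4, 41.2 and 58.2. *IRC22* on chromosome V, also little characterised, had 26.8, 36.02 and 82.3, and YLR001C on chromosome XII had 19.6, 54.2 and 81.5. In these promoters naked DNA was the lowest of the 3 libraries.

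The promoters of *RER1*, *YPT7* and *LOC1* differed from these. *RER1* on chromosome III, which returns membrane proteins from the Golgi to the endoplasmic reticulum, had 40.7 in naked DNA, 33.8 in replicate 1 and 122 in replicate 2. The replicates thus lay on either side of naked DNA, as they did in the *LOC1* promoter given above. *YPT7* on chromosome XIII, the Rab GTPase of vacuole fusion, had 113 in naked DNA, 13.7 in replicate 1 and 43.1 in replicate 2. Its promoter was the one of the 8 where both replicates lay well below naked DNA.

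The extremes of the 38 promoters, chosen after their values were seen, were *NUP60* and *YPI1*. *NUP60*, a nuclear pore gene on chromosome I, had 0.62 in naked DNA, 15.8 in replicate 1 and 24.7 in replicate 2. *YPI1* on chromosome VI had 241 in naked DNA, 157 in replicate 1 and 63.8 in replicate 2. Naked DNA was thus the lowest library in the former promoter and the highest in the latter. *NTH2*, a trehalase gene on chromosome II, also had its highest promoter level in naked DNA, at 91.4 against 12.6 and 8.33 in chromatin.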

How the data were processed

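Per the labels and the methods of the study, cells in exponential growth were cross-linked with formaldehyde. For chromatin they were digested with a range of MNase amounts, and the mononucleosomal band of a partial digestion was sequenced. For naked DNA, the DNA was first purified from cells handled alike but without MNase. It was then digested with a lower range of MNase amounts, and fragments near the size of a mononucleosome were cut from the gel. GEM was used by the authors to place the reads on sacCer2 with at most 3 mismatches, and only reads with a single place were deposited, repeated ones included. Its version is not given in the sources used here. The deposited files give the start, end and strand of each read, and a constant score of 1000, which serves display and was not used.

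Reads were capped per strand position at the Poisson limit (p of 1e-10), shifted by 73 bp to the fragment centre and counted in windows of 150 bp. Coverage, from the spans of the deposited reads, was 49.7-fold for naked DNA and 32.2-fold and 34.6-fold for *dst1∆*. Mitochondrial reads were left out. Peaks were sought every 10 bp on the signal minus naked DNA, set to 0 where negative and smoothed by a Gaussian of 20 bp. They had to be 20 high and 100 bp apart or more. The study used DANPOS, which was not run here, so these peaks and fuzziness scores are not its own. Only some of the steps were tested on simulated data, in which naked DNA was uniform. That test left out the cap on repeated reads and used a lower weight for the subtracted naked DNA. It also did not cover the gaps, the peaks beside them, the calls above and below naked DNA or the gene values. Start and end sites came from the part used here of a list given with the paper (1999 rows), taken as sacCer2, and symbols from RefSeq (R64), of which no coordinate was used.

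The members and lists were chosen with earlier results of these data known, and the gap rule, the level of 300 and the blocks of 900 bp were chosen after seeing the data. Windows were named as the 3 with the highest and lowest mean log2 ratio and naked DNA level, and genes as the nearest listed TSS on each chromosome. Alternatives covered the cap, scale, pseudocount, minimum, radius, correction, peak height and each chromosome or replicate left out. Replicates are the samples the labels number, and nothing says whether they were separate cultures. The analysis ran in Python 3.11.15 with pandas 2.3.3, scipy 1.17.1 and numpy 2.4.6, and figures were drawn with matplotlib 3.10.9.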

Additional observations from a re-analysis of the deposited data

Results flagged for a closer look

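The *dst1∆* replicate 2 library held 1285 mitochondrial reads, which no comparison used, while the naked DNA library and replicate 1 held 0 such reads.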

How the results depend on the processing

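The lower naked DNA mean of the pericentromeres kept its direction under 28 of 28 alternatives. Its log2 difference was -0.84 with no cap on repeated reads, -0.24 with 1 read per strand position, -0.77 within 2.5 kb, -0.27 within 10 kb, -0.58 against windows more than 30 kb from an end and -0.67 against the own chromosome. Those chosen after seeing the data gave -0.44 for members more than 1 kb away, -0.17 with medians and -0.60 for windows with a fragment in every library. With each chromosome left out it ran from -0.61 to -0.51. The chromatin mean gave -0.46 without a cap and reversed to 0.000347 with medians. The ratio of chromatin to naked DNA stayed above that of the remaining windows in all 31 alternatives, at 0.11 with 1 read per position and 0.14 with a pseudocount of 50. The corrected signal gave -0.25 without a cap, 0.20 with the genome median at 100, -0.21 without correction and -0.056 at a weight of 0.5. With each chromosome left out, windows above and below naked DNA made up 21.9% to 23.3% and 4.76% to 5.23%.

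Windows 2-fold above naked DNA made up 5.41% with 1 read per position, 30.1% and 3.29% with pseudocounts of 1 and 50, 27.2% without a minimum and 6.80% on the median scale. With a replicate left out the share above was 30.2% to 41.6%. Those 2-fold below made up 2.76% with a pseudocount of 50 and 16.8% on the median scale, and 6.91% to 10.9% with a replicate left out. Within 500 bp, the ratio difference was 0.13 with 1 read per position, 0.30 after thinning to the shallowest library and 0.54 and 0.25 with pseudocounts of 1 and 50. The naked DNA difference there was -2.47 without a cap and -1.22 with 1 read per position.

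The log2 difference in peaks per kb was 0.13 away from the ends, 0.063 without correction, 0.11 at a weight of 0.5, 0.24 with a height of 50 and 0.12 over windows with a fragment in every library. The fuzziness difference was 0.27 without a cap, 0.054 with 1 read per position, 0.28 after thinning, 0.20 away from the ends, 0.18 at a weight of 0.5, 0.35 with a height of 50, and reversed to -0.84 without correction. Replicate 2 over replicate 1 differed by 0.06 between the windows, and by 0.069 without a cap, 0.019 with 1 read per position, 0.051 with the fragment length from cross-correlation, 0.040 after thinning, 0.047 and 0.045 within 2.5 and 10 kb, 0.072 away from the ends, 0.069 against the own chromosome, 0.11 without a minimum and 0.058 on the median scale. The count of gaps, under settings chosen after seeing the data, was 9 when replicate 2 was searched (16.9% of the other sections), 16 in naked DNA (36.2%), 10 and 16 with a signal below 5 and 20 (7.34% and 18.6%), and 15 and 11 with lengths of at least 150 and 250 bp (21.1% and 7.91%). The cause of these changes was not tested. No paired analysis was possible because the naked DNA library has no replicate number to pair with those of *dst1∆*. Depth limits the windows within 500 bp most, of which 35 of 96 had fewer than 10 naked DNA fragments.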
